A study of Mus musculus with 33 samples.

Results

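Liver and lung macs from mice lacking Zeb2 were compared here to find genes that answered the deletion differently in the 2 tissues. All 33 of the 33 RNA-seq libraries of the series were used. Kupffer cells (KCs), the resident macs of the liver, came from Zeb2fl/fl mice as CRE- controls and from Clec4f-cre x Zeb2fl/fl mice, whose CRE+ KCs were split by sorting for Tim4 (Tim4+ and Tim4-), at 6 libraries a group. Alveolar macs (AMs), the macs of the lung airspace, came from Zeb2fl/fl mice as CRE- controls and from Itgax-cre x Zeb2fl/fl mice, whose CRE+ AMs were split by sorting for CD11b (CD11b- and CD11b+), at 5 libraries a group. Every group, controls included, carried the floxed Zeb2 allele on a C57Bl/6 background. Controls were littermates, and mice of both sexes were used at an age of 6 to 8 weeks unless stated otherwise. For each gene the CRE effect of a tissue was the mean of its 2 CRE+ groups minus its CRE- group on the log2 scale, and the tissue difference was the effect in KCs minus the effect in AMs.

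ZEB2 is a zinc finger factor that binds paired E-box sequences and is best known for silencing epithelial genes when epithelial cells turn into mesenchymal cells. KCs sit in the liver sinusoids, where they clear haemoglobin, iron, lipids and complement-coated particles from the blood. AMs live on the surface of the airways and recycle surfactant lipids under the control of GM-CSF and PPARγ.

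Several features of the mice limit the comparison. The Cre lines differ between the tissues, so that tissue and Cre line cannot be told apart. Clec4f-cre is also active in a small share of B cells, and Itgax-cre in other cells that express CD11c. The CRE+ sorts can hold cells that kept a copy of Zeb2, and the floxed allele leaves a shortened Zeb2 mRNA, so that counts over the whole gene do not measure the deletion. Zeb2 was nonetheless lower in every CRE+ library than in every CRE- library of its tissue: CRE- KCs held 229, 282 and 339 CPM (lowest, median and highest, where CPM are the counts of a gene for every 1e+06 counts of the library), Tim4+ KCs 146, 164 and 211 CPM, and Tim4- KCs 149, 169 and 197 CPM. In AMs the 5 CRE- libraries held 184, 169.5, 204, 205 and 205 CPM, the CD11b- libraries 114, 108, 84.7, 113 and 105 CPM, and the CD11b+ libraries 70.2, 68.2, 59.7, 62.1 and 50.3 CPM. Zeb1, the other member of the family, was at 13.5 ± 3.89 CPM (mean ± SD, n = 6) in CRE- KCs and 3.50 ± 1.73 CPM (n = 5) in CRE- AMs, and its tissue difference of -0.92 ± 0.39, adjusted p = 0.101 did not pass the test. The 2 CRE+ AM groups differed: CD11b+ AMs held 13.3 to 16.7 CPM, above the 1.23 to 5.51 CPM of CRE- AMs, and CD11b- AMs 1.01 to 5.27 CPM. With Tim4- KCs and CD11b+ AMs alone the tissue difference of Zeb1 was -2.35, adjusted p = 1.24e-04 (edgeR).

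Libraries held 9837240 to 24332306 counts on genes, and 13294 of 24421 genes were tested. TMM factors ran from 0.876 to 0.910 in CD11b+ AMs and from 0.993 to 1.06 elsewhere. The sorts left their mark: Timd4, which encodes Tim4, was at 279 to 441 CPM in Tim4+ KCs and 0.230 to 8.37 CPM in Tim4- KCs, and Itgam, which encodes CD11b, at 13.4 to 22.7 CPM in CD11b- AMs and 234 to 279.6 CPM in CD11b+ AMs. Clec4f, whose locus carries the Cre of the liver mice, was between 2735 and 12113 CPM in every KC library and no higher than 0.390 CPM in any AM library. Summed markers of liver sinusoidal endothelium (15 genes, none at 0 throughout a KC group) took 969 to 3248 CPM in CRE- KCs, 1888 to 5446 CPM in Tim4+ KCs and 623 to 942 CPM in Tim4- KCs. Neutrophil markers (13 of 14 genes in the files) took 91.5 to 116 CPM in CRE- AMs, 1027 to 2644 CPM in CD11b- AMs and 8331 to 10759 CPM in CD11b+ AMs. In bulk samples, fewer cells of a type and less RNA per cell cannot be told apart. Labels number the libraries but do not say which came from separate mice, and p-values measure the spread between these libraries.

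The tissue difference was called (adjusted p under 0.05, edgeR's quasi-likelihood test over all genes tested, and an absolute log2 difference above 1) for 1083 genes. The KC change lay above the AM change for 465 genes, 3.5% of those tested, and below it for 618 genes, 4.65%. By the same thresholds the CRE effect in KCs was called for 391 higher genes, 2.94%, and 219 lower genes, 1.65%, while the effect in AMs was called for 837 higher genes, 6.3%, and 528 lower genes, 3.97%. In KCs the share of higher genes among those called was 64.1%, and 52.9% by limma-voom, which called 396 higher and 353 lower genes. Among the 1083 genes, 41 changed in opposite directions in the 2 tissues, 173 were called in KCs and not in AMs, and 649 in AMs and not in KCs. A further 50 moved the same way in both tissues by unequal amounts, and 170 were called for the difference with neither tissue passing by itself. Another 130 genes were called in both tissues with the same sign and no call for the difference. The median over all genes tested was 0.01 for the difference, 0 for the AM effect and -0.0037 for the KC effect.

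**Figure D1:**
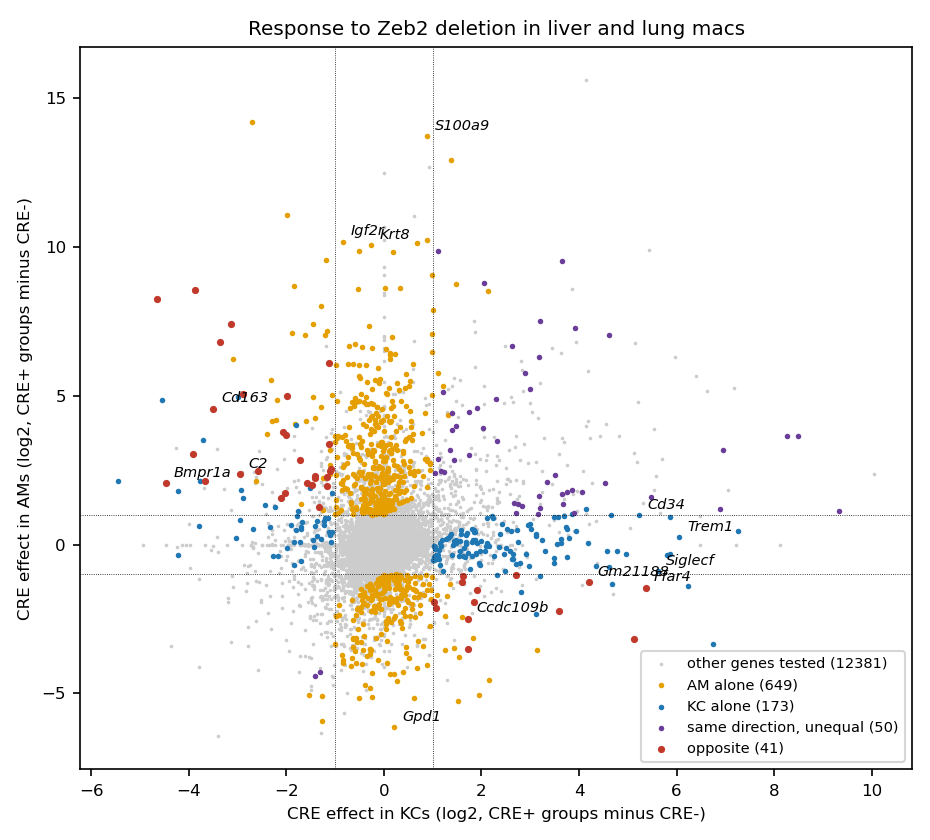
CRE effect in KCs (horizontal, log2) against the CRE effect in AMs (vertical, log2) for the 13294 genes tested, with dotted lines at the fold threshold of 1. The 41 opposite genes lie in the upper left and lower right corners, the 649 genes called in AMs and not in KCs form the vertical band, and the 173 genes called in KCs and not in AMs the horizontal band.

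ZEB factors recognise the E-box CAGGTG, which reads CACCTG on the other strand. Promoter sequences (RefSeq, GRCm38.p6, 250 bases before to 50 after the start) were found for 10135 of the 13294 genes tested, and 20.6% of these genes had a promoter with the E-box on either strand. Among the 32851 promoters of the whole table the share was 20.2%. Of the 32 genes tested from the epithelial list, 19 had a promoter sequence and 14 held the E-box, or 73.7%. The list holds genes of junctions, keratins and epithelial surface proteins, chosen because ZEB factors are known to repress such genes. Its share is therefore no independent evidence. The opposite genes held the E-box in 6 of 20 where KCs were lower and AMs higher and in 3 of 8 where KCs were higher and AMs lower. Genes called in KCs and not in AMs held it in 27 of 96 that rose and 3 of 31 that fell. Genes called in AMs and not in KCs held it in 84 of 321 that rose and 34 of 163 that fell. A match is a description of the letters and shows no binding. The stretches before the start of 4 genes that the results return to are given from 5′ to 3′, on the strand of the gene, with the E-box in capitals. They are keratin genes Krt8 (chr15:102004421-102004480, minus strand) and Krt18 (chr15:102027975-102028034, plus strand), the calprotectin gene S100a9 (chr3:90695742-90695801, minus strand) and the vitamin D receptor gene Vdr (chr15:97908297-97908350, minus strand), with the E-box 111, 214, 53 and 27 bases before the start.
Krt8: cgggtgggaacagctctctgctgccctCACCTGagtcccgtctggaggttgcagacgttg
Krt18: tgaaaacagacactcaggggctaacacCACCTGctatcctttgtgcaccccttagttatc
S100a9: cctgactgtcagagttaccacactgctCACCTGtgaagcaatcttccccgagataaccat
Vdr: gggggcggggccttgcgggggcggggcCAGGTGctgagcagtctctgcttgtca

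Genes that fell in KCs and rose in AMs were the larger of the opposite groups, with 28 genes, and 17 of them reached a mean of 1 CPM in some group of each tissue. They included scavenger and complement genes of the liver mac. Cd163, the receptor that takes up haemoglobin bound to haptoglobin, was at 1116, 1239 and 1525 CPM in CRE- KCs, 157, 223 and 344 CPM in Tim4+ KCs and 35.1, 54.2 and 75.2 CPM in Tim4- KCs (lowest, median and highest of 6). Its AM levels were 0, 0, 0.366, 0.143 and 0 CPM in CRE- libraries, 1.83, 0, 3.50, 0 and 0 CPM in CD11b- libraries and 2.56, 6.24, 5.26, 10.8 and 6.72 CPM in CD11b+ libraries. The KC groups did not overlap, while in AMs the CD11b- libraries overlapped with the controls and the CD11b+ libraries lay above the controls but overlapped with the CD11b- libraries. The CRE effect was -3.50 ± 0.28, adjusted p = 1.54e-11, in KCs and 4.57 ± 0.85, adjusted p = 8.29e-05, in AMs (log2 ± SE), and the tissue difference -8.07 ± 0.81, adjusted p = 3.12e-09. Even so, the highest AM library held less Cd163 than the lowest Tim4- KC library.

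C2, the protease of the classical complement pathway, was at 149, 193 and 281 CPM in CRE- KCs, 64.4, 77.7 and 90.2 CPM in Tim4+ KCs and 2.88, 9.29 and 13.8 CPM in Tim4- KCs. In AMs it was at 3.30, 1.999, 1.19, 1.14 and 1.37 CPM in CRE- libraries, 5.17, 2.86, 2.52, 6.75 and 4.58 CPM in CD11b- libraries and 25.001, 14.5, 20.6, 15.3 and 25.4 CPM in CD11b+ libraries. CRE- KCs lay far above CRE- AMs, yet every Tim4- KC library held less C2 than every CD11b+ AM library. In AMs the CD11b- libraries overlapped with the controls. The tissue difference was -5.32 ± 0.38, adjusted p = 1.20e-12, made of -2.96 ± 0.20 in KCs and 2.36 ± 0.30 in AMs.

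Bmpr1a, a type I receptor for bone morphogenetic proteins, was opposite without overlap between groups in either tissue. CRE- KCs held 24.8, 29.1 and 37.1 CPM, Tim4+ KCs 4.19, 6.83 and 15.1 CPM and Tim4- KCs 0, 0 and 0.935 CPM, while AM levels were 8.87, 2.97, 1.97, 12.7 and 7.89 CPM in CRE- libraries, 19.9, 15.9, 20.7, 25.5 and 15.2 CPM in CD11b- libraries and 45.2, 40.96, 47.1, 44.04 and 36.1 CPM in CD11b+ libraries. The KC groups stepped down and the AM groups stepped up. Its tissue difference was -6.54 ± 0.57, adjusted p = 1.53e-10, with -4.47 ± 0.36, adjusted p = 3.15e-11, in KCs and 2.07 ± 0.39, adjusted p = 9.23e-05, in AMs.

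The lipid carrier Apoc1 was at 494, 606 and 682 CPM in CRE- KCs, 310.3, 459 and 559.6 CPM in Tim4+ KCs and 62.7, 114 and 167 CPM in Tim4- KCs. AMs held 5.35, 4.73, 3.38, 5.46 and 2.98 CPM in CRE- libraries, 13.2, 12.2, 11.2, 22.9 and 15.8 CPM in CD11b- libraries and 36.04, 33.9, 17.8, 27.6 and 31.5 CPM in CD11b+ libraries. Tim4+ KCs overlapped with their controls and Tim4- KCs did not, and all CRE+ AMs lay above the CRE- AMs (tissue difference -3.67 ± 0.30, adjusted p = 2.71e-11). The folate receptor Folr2 had group means of 1211 ± 158, 686 ± 140.3 and 445 ± 105 CPM in CRE-, Tim4+ and Tim4- KCs (± SD, n = 6), and 0.0577 ± 0.0631, 0.0665 ± 0.102 and 6.67 ± 3.83 CPM in CRE-, CD11b- and CD11b+ AMs (n = 5). Its call (tissue difference -4.52 ± 1.18, adjusted p = 0.00534) rested on the CD11b+ AMs, was not made by limma-voom, and was lost without replicate 4 of the CD11b- AMs (adjusted p = 0.127). The tyrosine kinase Src was at 6.27, 7.52 and 8.28 CPM in CRE- KCs, 3.05, 3.81 and 5.41 CPM in Tim4+ KCs and 0.690, 1.83 and 3.53 CPM in Tim4- KCs, against 0.669, 0.682, 0.320, 1.52 and 0.809 CPM in CRE- AMs, 0.862, 1.80, 0.513, 1.44 and 1.58 CPM in CD11b- AMs and 23.2, 7.05, 8.02, 15.3 and 9.85 CPM in CD11b+ AMs (tissue difference -3.72 ± 0.48, adjusted p = 3.79e-07).

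The 8 largest differences in this direction, Cd163 apart, belonged to genes with a group that held no count. Tmem26 was at 217 to 256 CPM in CRE- KCs and 43.2 to 199 CPM in Tim4- KCs, had no count in any CRE- AM library, and did not pass 1.45 CPM in any CRE+ AM library (not called by limma-voom). Set against 3 counts over the CRE- AM group, it was at least 9.26-fold higher in CD11b- AMs and at least 24.0-fold higher in CD11b+ AMs. The cation exchanger gene Slc24a3 and the amyloid precursor adaptor gene Apbb1, with fitted differences of -12.91 and -12.42, had KC means of at most 0.700 and 0.153 CPM, so that their change in KCs rests on very few reads. Apbb1 reached 148, 147, 157, 154 and 166 CPM in CD11b+ AMs. Klhl38, Fam19a5, Klhl13 and Serpinb8 were the others. The calls of Apbb1, Klhl13 and Serpinb8 were each lost (adjusted p = 1) without 1 library, replicate 2 of the CRE- KCs, replicate 3 of the CD11b- AMs and replicate 2 of the CD11b- AMs, and the fitted values of such genes give no bound on the fold. The other genes of this group, from Fam181b (-6.97) to Pmp22 (-2.58), belonged to varied functions, among them a glutamate transporter (Slc1a2, not called by limma-voom), a tyrosine kinase (Tnk2), a collagen (Col14a1) and a small GTPase (Rab34).

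**Figure D2:**
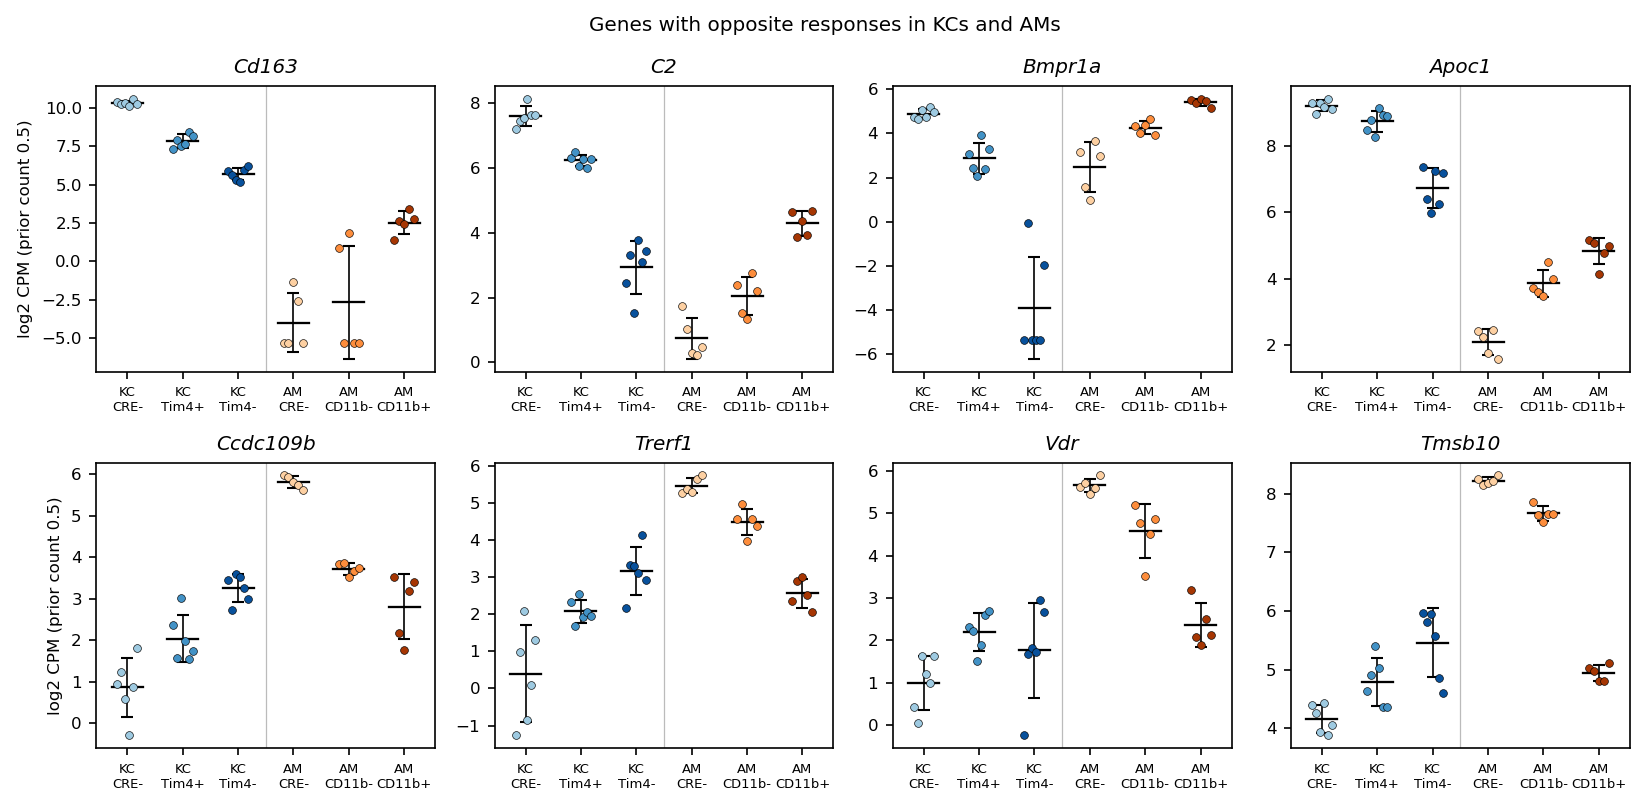
Level of 8 opposite genes in each of the 33 libraries (log2 CPM with a prior count of 0.5; horizontal bars, group means; error bars, SD; n = 6 for KC groups and 5 for AM groups). In the top row the KC groups step down from CRE- to Tim4- while the AM groups step up from CRE- to CD11b+, and in the bottom row the steps run the other way. Vdr is the exception in KCs, where Tim4- cells do not lie above Tim4+ cells.

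Genes that rose in KCs and fell in AMs numbered 13, and 9 of them reached 1 CPM in both tissues. Ccdc109b, a subunit of the mitochondrial calcium uniporter, was at 0.791, 1.86 and 3.51 CPM in CRE- KCs, 2.91, 3.62 and 8.12 CPM in Tim4+ KCs and 6.54, 10.2 and 12.1 CPM in Tim4- KCs. AMs held 62.5, 60.9, 56.3, 53.3 and 49.3 CPM in CRE- libraries, 14.2, 14.4, 11.4, 12.6 and 13.2 CPM in CD11b- libraries and 11.5, 4.47, 3.39, 9.01 and 10.5 CPM in CD11b+ libraries. CRE- AMs held far more than CRE- KCs, and after the fall in AMs and the rise in KCs the ranges of Tim4- KCs and CD11b+ AMs overlapped (tissue difference 4.20 ± 0.36, adjusted p = 1.07e-10). The zinc finger regulator Trerf1 followed the same course, from 0.392, 1.51 and 4.24 CPM in CRE- KCs to 4.49, 9.27 and 17.7 CPM in Tim4- KCs, and from 38.7, 41.7, 39.2, 50.04 and 53.5 CPM in CRE- AMs through 23.6, 31.2, 15.7, 23.8 and 20.8 CPM in CD11b- AMs to 5.06, 7.46, 8.08, 5.69 and 4.17 CPM in CD11b+ AMs (tissue difference 3.77 ± 0.43, adjusted p = 3.94e-08).

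The vitamin D receptor gene Vdr, whose promoter is shown above, was at 49.6, 52.9, 44.1, 48.2 and 59.6 CPM in CRE- AMs, 36.5, 27.5, 11.4, 22.9 and 29.4 CPM in CD11b- AMs and 9.09, 4.16, 3.65, 5.64 and 4.35 CPM in CD11b+ AMs. In KCs it stayed low, at 1.002, 2.11 and 3.09 CPM in CRE-, 2.81, 4.81 and 6.39 CPM in Tim4+ and 0.817, 3.37 and 7.75 CPM in Tim4- cells, with overlap between the controls and both CRE+ groups. The KC rise passed the thresholds narrowly (KC effect 1.07 ± 0.30, adjusted p = 0.0116; AM effect -2.12 ± 0.28, adjusted p = 3.00e-07). Nrg4, a ligand of ERBB4, was at 0 to 0.980 CPM in CRE- KCs, 1.01 to 4.65 CPM in Tim4+ KCs and 1.43 to 3.67 CPM in Tim4- KCs, and at 15.7 to 19.6 CPM, 8.07 to 14.8 CPM and 5.52 to 7.82 CPM in CRE-, CD11b- and CD11b+ AMs. The CRE+ libraries did not overlap with the controls in either tissue. Tmsb10, which binds actin monomers, was the most abundant opposite gene of AMs, at 303, 285, 289.7, 298 and 318 CPM in CRE- AMs, 232, 199, 183, 202 and 201 CPM in CD11b- AMs and 32.6, 31.3, 27.8, 28.02 and 34.4 CPM in CD11b+ AMs. In KCs it was at 14.7, 17.9 and 21.5 CPM in CRE-, 20.5, 27.4 and 42.4 CPM in Tim4+ and 24.2, 51.9 and 62.3 CPM in Tim4- cells (KC effect 1.02 ± 0.16, adjusted p = 1.64e-05), just past the fold threshold.

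Gm21188, a predicted gene, was at 0.783, 2.03 and 3.40 CPM in CRE- KCs, 6.37, 21.02 and 55.1 CPM in Tim4+ KCs and 15.7, 50.7 and 93.8 CPM in Tim4- KCs, and at 22.7, 18.2, 18.02, 19.4 and 24.1 CPM in CRE- AMs, 10.5, 8.91, 12.8, 13.6 and 13.6 CPM in CD11b- AMs and 7.20, 4.87, 3.13, 6.48 and 9.45 CPM in CD11b+ AMs. In both tissues the CRE+ libraries did not overlap with the controls (tissue difference 5.45 ± 0.51, adjusted p = 7.21e-10). Ffar4, a receptor for long-chain fatty acids, belonged to AMs, where it was at 135, 134, 118, 113 and 132 CPM in CRE- and 19.9, 22.2, 26.99, 21.1 and 18.4 CPM in CD11b+ libraries. No CRE- KC library held a count of Ffar4, and against 3 counts over that group it was at least 11.6-fold higher in Tim4+ KCs and at least 9.35-fold higher in Tim4- KCs, at levels of at most 0.947 CPM. The transcription factor Myrf had no count in CRE- KCs either and was at least 7.51-fold higher in Tim4+ KCs and at least 12.01-fold higher in Tim4- KCs, while its AM effect was -3.17 ± 0.69, adjusted p = 7.66e-04. The cytokine Clcf1 (tissue difference 5.22) and the forkhead gene Foxr1 (5.82) stayed below 3 CPM on average in every group. The other genes of this direction were Plxdc1 (3.44), Phlda3 (2.68) and Rnd1 (2.84).

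Of the 173 genes called in KCs and not in AMs, 126 rose and 47 fell. Of those that rose, 114 were detected in AMs (mean of at least 1 CPM in some AM group), and for 65 of these the approximate 95% interval of the AM effect lay within 1 log2 unit of 0. Siglecf, a sialic acid-binding lectin that AMs carry on their surface and that was used to sort them, was at 1.62, 4.92 and 5.76 CPM in CRE- KCs, 95.7, 170.2 and 238 CPM in Tim4+ KCs and 248, 268 and 421 CPM in Tim4- KCs. In AMs it was at 537, 500.1, 476, 529.6 and 597 CPM in CRE- libraries, 323, 398, 337, 393 and 389 CPM in CD11b- libraries and 195, 221, 214, 226 and 240.3 CPM in CD11b+ libraries. Every CRE+ KC library lay far above every KC control, while every CRE+ AM library lay below every AM control. The AM effect of -0.89 ± 0.16, adjusted p = 4.80e-05, passed the p threshold and not the fold threshold (KC effect 5.61 ± 0.21, adjusted p = 5.29e-19; tissue difference 6.51 ± 0.26, adjusted p = 6.62e-19). Eosinophils also carry Siglecf, and of their other markers Epx had no count in any KC library, Prg2 was at no more than 0.0391 CPM in any KC group, and Il5ra had a KC effect of 0.38 (adjusted p = 0.749), while Ccr3 rose by 2.82.

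Trem1, a receptor that amplifies inflammatory signals in myeloid cells, was at 0, 0.0791 and 0.852 CPM in CRE- KCs, 9.33, 11.97 and 15.7 CPM in Tim4+ KCs and 16.7, 21.3 and 31.3 CPM in Tim4- KCs. All AM libraries held between 117 and 212 CPM, and the AM effect was 0.24 ± 0.19, adjusted p = 0.388 (95% interval -0.15 to 0.64). Tmem154 had the same pattern, with 0.276, 0.696 and 1.13 CPM in CRE- KCs and 31.2, 58.3 and 72.005 CPM in Tim4- KCs beside 320.0 to 414 CPM in CRE- AMs and 236 to 315 CPM in CD11b+ AMs (tissue difference 6.17 ± 0.30, adjusted p = 1.94e-16). The sialomucin gene Cd34, known from progenitors and endothelium, was at 1.11, 2.81 and 4.75 CPM in CRE- KCs, 35.4, 61.8 and 108 CPM in Tim4+ KCs and 55.8, 185 and 262 CPM in Tim4- KCs, against 0.183 to 1.92 CPM in CRE- and 1.82 to 4.06 CPM in CD11b+ AMs. Its call was not made by limma-voom. The part of endothelial RNA in the level of Cd34 was not tested. The integrin gene Itgax, which encodes CD11c and gives its promoter to the Cre of the lung mice, rose in KCs by 2.95 ± 0.23, adjusted p = 1.16e-11, and had an AM effect of 0.67 ± 0.21, adjusted p = 0.0143.

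The 47 genes that fell in KCs and were not called in AMs were led by Timd4, which the sort itself set, at 667, 714 and 766 CPM in CRE- KCs and 279, 393 and 441 CPM even in the Tim4+ sort. Lepr, the leptin receptor, was at 10.5, 15.3 and 36.2 CPM in CRE- KCs, 2.85, 7.36 and 11.01 CPM in Tim4+ KCs and 0.102, 1.08 and 2.63 CPM in Tim4- KCs. In AMs it was more abundant, at 90.96, 89.6, 92.1, 89.96 and 93.2 CPM in CRE- libraries, 181, 161, 166, 211 and 153 CPM in CD11b- libraries and 81.1, 95.8, 119.8, 94.7 and 101 CPM in CD11b+ libraries, with no net effect called (0.52 ± 0.26, adjusted p = 0.145). The growth factor receptor Fgfr1 was at 16.1, 24.6 and 33.1 CPM in CRE- KCs and 0, 4.79 and 8.28 CPM in Tim4- KCs, and the phospholipid transporter Abcb4 at 12.6, 19.6 and 31.1 CPM and 0.874, 2.37 and 10.7 CPM. Both were below 4 CPM in every AM library, and neither tissue difference was called by limma-voom. That of Fgfr1 was also lost without replicate 5 of the CD11b- AMs (adjusted p = 0.0622), and that of Abcb4 without any of 7 single libraries (adjusted p = 0.0522 to 0.0729). Tim4- KCs were also the group with the lowest summed endothelial markers, at a median of 763 CPM beside 2036 CPM in CRE- KCs, and the part of endothelial RNA in these falls was not tested.

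AMs had the larger set of their own, with 428 genes that rose and 221 that fell without a call in KCs. Of those that rose, 366 were detected in KCs and 249 of these had a KC interval within 1 log2 unit of 0, while for those that fell the numbers were 198 and 115. S100a9, which with S100a8 forms the antimicrobial protein calprotectin, was at 0, 0.244, 0.183, 0 and 0.0506 CPM in CRE- AMs, 262, 321, 631, 817 and 501 CPM in CD11b- AMs and 4254, 3443, 3199, 3579 and 3840.3 CPM in CD11b+ AMs. In KCs it did not pass 5.10 CPM in any library (KC effect 0.88 ± 0.75, adjusted p = 0.484; AM effect 13.72 ± 0.64, adjusted p = 2.01e-17). Krt8, a keratin of simple epithelia, was at 0.0892, 0, 0.320, 0.380 and 0 CPM in CRE- AMs, 42.03, 40.2, 59.8, 58.7 and 84.5 CPM in CD11b- AMs and 755, 571, 434, 395 and 645 CPM in CD11b+ AMs, and at 1.29, 2.03 and 5.46 CPM in CRE- KCs beside 0.434, 1.69 and 2.04 CPM in Tim4- KCs (tissue difference -10.33 ± 0.67, adjusted p = 1.54e-13). In both genes the 3 AM groups were separate and the 3 KC groups overlapped.

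Igf2r, the receptor that sends mannose 6-phosphate proteins to lysosomes, was at 0.0446, 0, 0, 0 and 0 CPM in CRE- AMs, 11.5, 0.736, 5.69, 8.02 and 4.34 CPM in CD11b- AMs and 61.3, 44.97, 61.02, 64.6 and 43.9 CPM in CD11b+ AMs, and at 23.9, 34.3 and 43.5 CPM in CRE- KCs (tissue difference -11.04 ± 0.84, adjusted p = 7.30e-12). CRE- AMs held 1 count of Igf2r in all, so that the fitted value gives no bound on its fold. Lyve1, a hyaluronan receptor of lymphatic and sinusoidal endothelium and of some tissue macs, was at 0 to 0.357 CPM in CRE- AMs, 2.59 to 7.22 CPM in CD11b- AMs and 24.4 to 38.5 CPM in CD11b+ AMs. The 15 endothelial markers, Lyve1 included, together took 5.04 to 10.2 CPM in CRE- AMs, 7.403 to 23.1 CPM in CD11b- AMs and 38.1 to 52.6 CPM in CD11b+ AMs, and the part of endothelial RNA was not tested.

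Among genes that fell in AMs with no call in KCs, Gpd1, the cytosolic glycerol 3-phosphate dehydrogenase that links glycolysis to lipid synthesis, was at 41.8, 48.6, 59.4, 63.1 and 70.9 CPM in CRE- AMs, 4.01, 9.73, 5.41, 10.6 and 9.91 CPM in CD11b- AMs and 0, 0.304, 0.0521, 0 and 0 CPM in CD11b+ AMs. KCs held 1.16, 3.01 and 5.39 CPM in CRE- and 0.637, 2.71 and 4.77 CPM in Tim4- cells (KC effect 0.21 ± 0.40, adjusted p = 0.795; tissue difference 6.34 ± 0.67, adjusted p = 8.50e-09). The receptor phosphatase Ptprs was at 55.2, 27.9, 33.8, 20.9 and 36.5 CPM in CRE- AMs, 1.47, 1.59, 0.933, 2.89 and 3.15 CPM in CD11b- AMs and 3.96, 4.06, 4.43, 7.11 and 3.01 CPM in CD11b+ AMs. Both CRE+ groups lay far below the controls and overlapped with each other (KC effect -0.43 ± 0.20, adjusted p = 0.156).

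The neighbouring C-type lectin genes Clec4b1 and Clec4a2 came close to the opposite class. Clec4a2 was at 98.1, 104, 94.996, 112 and 99.9 CPM in CRE- AMs, 70.6, 70.4, 74.6, 65.9 and 72.3 CPM in CD11b- AMs and 4.27, 7.92, 4.85, 4.74 and 8.52 CPM in CD11b+ AMs, and at 77.5, 107 and 132 CPM, 130.1, 151 and 165 CPM and 179, 203 and 242 CPM in CRE-, Tim4+ and Tim4- KCs. The AM effect was -2.30 ± 0.11, adjusted p = 5.54e-17, and the KC effect 0.73 ± 0.11, adjusted p = 3.65e-06, which passed the p threshold and not the fold threshold. For Clec4b1 the effects were -2.73 ± 0.20, adjusted p = 8.73e-13 in AMs and 0.94 ± 0.18, adjusted p = 2.88e-04 in KCs. These lectins belong to a family of similar genes, and the handling of reads that map to several genes is not given in the sources used here, so that their counts are uncertain. Without the fold threshold, 283 genes would count as opposite.

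**Figure D3:**
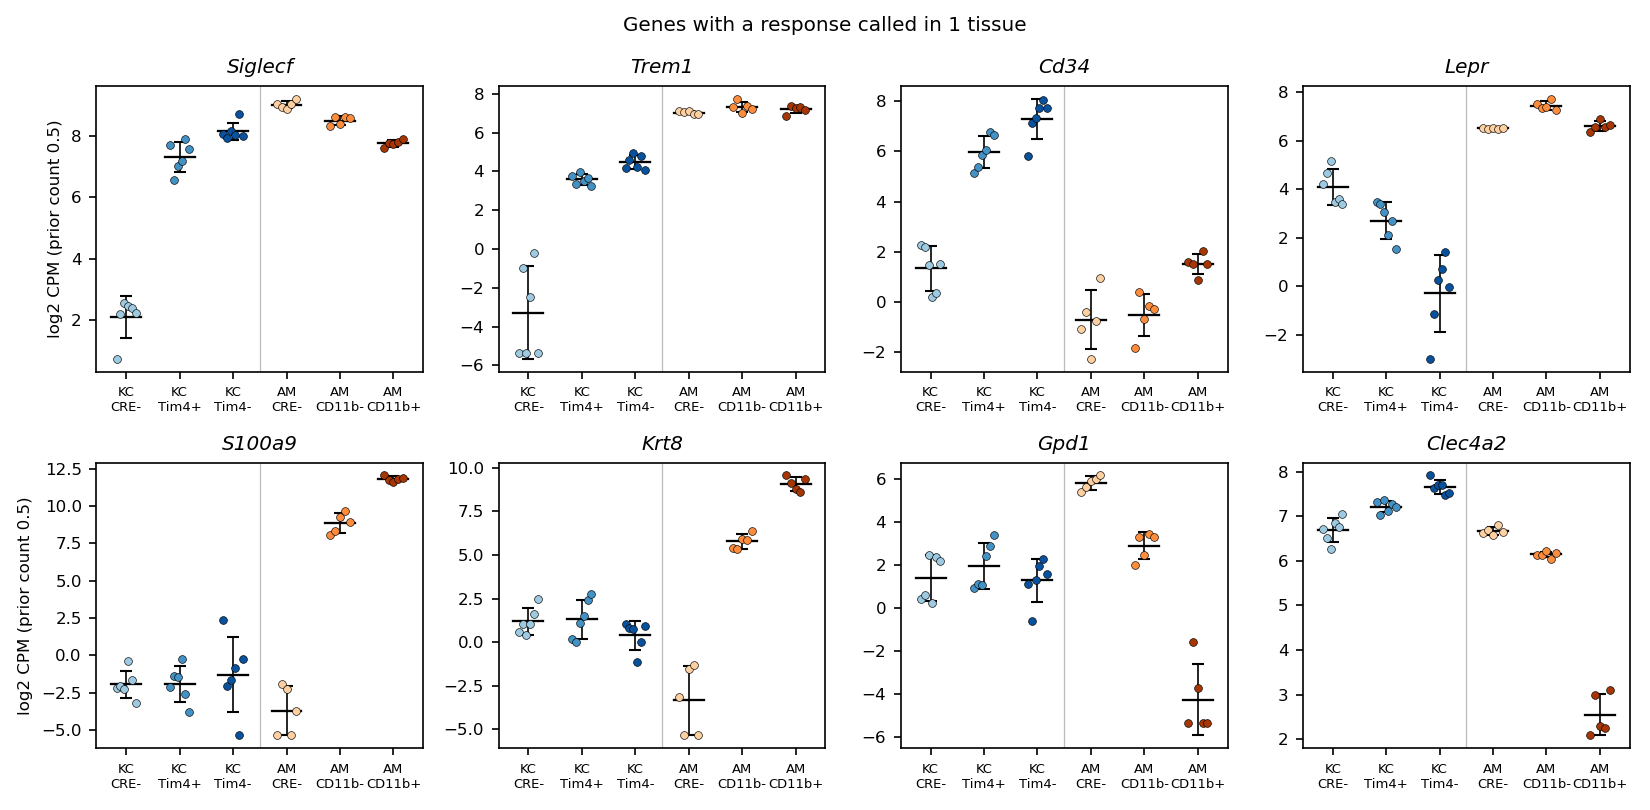
Level of 8 genes called in a single tissue, in each of the 33 libraries (log2 CPM with a prior count of 0.5; horizontal bars, group means; error bars, SD; n = 6 for KC groups and 5 for AM groups). Siglecf, Trem1 and Cd34 step up and Lepr steps down across the KC groups, S100a9 and Krt8 step up and Gpd1 and Clec4a2 step down across the AM groups, while the groups of the other tissue show smaller shifts.

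The 2 CRE+ groups of a tissue contributed unequally. For the 28 genes lower in KCs and higher in AMs, the median log2 change from CRE- was -1.32 in Tim4+ and -2.37 in Tim4- KCs, and 1.75 in CD11b- and 3.78 in CD11b+ AMs. The 428 genes that rose in AMs without a call in KCs had medians of 1.77 in CD11b- and 3.46 in CD11b+ AMs, beside 0.03 in Tim4+ and -0.25 in Tim4- KCs. The 126 genes that rose in KCs without a call in AMs had medians of 1.90 in Tim4+ and 2.60 in Tim4- KCs. When only Tim4- KCs and CD11b+ AMs were set against their controls, 1952 genes were called for the tissue difference and 143 were opposite. With only Tim4+ KCs and CD11b- AMs the numbers were 610 and 16. The paper lists Cd163, Bmpr1a, Apoc1, Ccdc109b and Timd4 among genes that differ between monocyte-derived and embryonic KCs. Ccr1, Ccr2, Ccr3, Cx3cr1, C4b, Xlr, Klhl13 and Marco, named elsewhere in this text, are on the same list. The part of cell origin in the KC changes was not tested.

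Genes were then grouped by 38 lists of pathways and functions. The share of a list called for the difference is to be read beside 8.15% of all genes tested. It was 44.4% for complement, 43.5% for S100 and antimicrobial, 34.4% for epithelial and 33.3% for AM marker genes. Iron and heme genes had 29.6%, chemokine receptors 29.2% and immediate-early genes 28.1%. PPARγ and lipid handling genes had 24%, cholesterol synthesis genes 22.2% and fatty acid synthesis genes 21.4%. The list of genes known to mark KCs among macs (30 genes tested) held 13 members with the KC change below the AM change and 1, Clec4f, above it, or 46.7% called against 8.15% of all genes tested. In KCs 10 members fell and 1 rose, and in AMs 11 rose and 1 fell. The median effect was -0.53 in KCs and 1.17 in AMs, and the median difference -1.43 (-1.53 with groups without counts set to 3 counts). Cd163, Folr2 and Apoc1 were opposite, Timd4, Fabp7 and Xlr were called in KCs and not in AMs, and Itga9, Paqr9, Slc16a9, Id3, Il18bp and C1qa in AMs and not in KCs. Of the 11 that rose in AMs, 9 reached a mean of 1 CPM in some AM group. Itga9, Paqr9 and Slc16a9 were tested because KCs express them, and in AMs they had means of at most 1.30, 0.416 and 0.780 CPM, so that their rise rests on few reads. limma-voom did not call the differences of Paqr9 (adjusted p = 0.140) and Clec4f (adjusted p = 0.330). Clec4f itself fell in KCs, from a mean of 10934 CPM in CRE- to 4720 and 3612 CPM in Tim4+ and Tim4- KCs. Its AM means were 0.272, 0 and 0.0226 CPM in CRE-, CD11b- and CD11b+ AMs, so that its place above rests on very few reads. C1qa, a chain of complement C1q, was at 4427 to 5218 CPM in CRE- KCs and 3971 to 4599 CPM in Tim4- KCs, and at 0.357, 1.27, 0.0457, 0.238 and 0.405 CPM in CRE- AMs, 2.18, 0.163, 5.46, 0.231 and 1.73 CPM in CD11b- AMs and 74.7, 28.9, 18.7, 83.5 and 47.99 CPM in CD11b+ AMs. The rise in AMs was steep on the log2 scale (4.44 ± 0.54, adjusted p = 5.93e-08), but the highest AM library was far below any KC library. Of 9 monocyte markers tested, 5 rose in AMs and Fn1 fell, while in KCs 2 rose and none fell. The 2 were Ccr2 (means of 4.98, 21.8 and 116 CPM in CRE-, Tim4+ and Tim4- KCs) and Cx3cr1 (5.86, 78.5 and 164 CPM). The list of 10 took 2397 to 3106 CPM in CD11b+ AMs beside 194 to 393 CPM in CD11b- and 599 to 1049 CPM in CRE- AMs, most of it Cd177 in CD11b+ AMs (mean 2270 CPM) and Fn1 in CRE- AMs (mean 780.2 CPM). The 8 other genes took 91.7 to 294 CPM in CD11b+, 14.3 to 26.7 CPM in CD11b- and 6.37 to 13.5 CPM in CRE- AMs, and their part in the rise was not tested. The nuclear receptor Nr1h3 (LXRα) had a KC effect of -0.42 ± 0.09, adjusted p = 8.81e-04 and an AM effect of 0.77 ± 0.10, adjusted p = 5.41e-07, each short of the fold threshold, with a called difference of -1.18.

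AM markers (39 genes tested) were split, with 8 members above and 5 below. Siglecf, Itgax, Spp1, Pparg and Slc7a2 rose in KCs and were not called in AMs (Spp1 only from a mean of 0.330 CPM to 3.06 and 1.4999 CPM, and its difference was not called by limma-voom, adjusted p = 0.134), whereas Ear1, Ear2 and Fabp1 fell in AMs and were not called in KCs. Ear1, an RNase of the eosinophil-associated family, was at 607, 556, 563, 599 and 592 CPM in CRE- AMs, 224, 252, 206, 228 and 243 CPM in CD11b- AMs and 13.2, 24.9, 17.8, 8.80 and 16.5 CPM in CD11b+ AMs. The Ear genes are near copies of each other, and their counts are uncertain for that reason. Marco, Il1rn, Gal and Ccl6 rose in AMs instead. In KCs Marco had means of 605, 1608 and 258 CPM in CRE-, Tim4+ and Tim4- cells, which its KC effect of 0.09 averages. The difference of Gal was not called by limma-voom (adjusted p = 0.0588). These 2 marker lists were drawn up with earlier results of these samples known, and their directions are no independent evidence.

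Complement genes (27 tested) held 10 members with the KC change below the AM change and 2 above it. C2 was opposite, C4b was called in KCs alone (-1.42 in KCs, 0.64 in AMs), the gate gene Itgam rose more in AMs, and the 3 C1q chains, the anaphylatoxin receptor C3ar1, Cd93 and ficolin A (Fcna) rose in AMs alone. C3ar1 was at 0.936, 1.27, 0.320, 0.855 and 1.21 CPM in CRE- AMs, 10.9, 4.58, 13.4, 13.05 and 8.43 CPM in CD11b- AMs and 133, 75.6, 82.6, 85.4 and 93.02 CPM in CD11b+ AMs, while KCs held 301 to 568 CPM in CRE- and 380.0 to 589.7 CPM in Tim4- cells. The median difference over the list was -0.99, or -1.69 with groups without counts set to 3 counts. C3 itself rose in both tissues, by 1.22 in KCs and 1.62 in AMs, with no call for the difference. The 2 members above were Itgax and the membrane inhibitor Cd59a, which fell in AMs by 3.55 on the log2 scale. AM means of Cd59a were only 0.725, 0.0437 and 0.0680 CPM in CRE-, CD11b- and CD11b+ AMs, so that its fall rests on few reads. Of the iron and heme genes (27 tested), 6 were below and 2 above. The transferrin receptor Tfrc was at 6.15, 5.46, 5.95, 6.18 and 1.47 CPM in CRE- AMs and 26.1, 31.4, 39.2, 27.2 and 27.3 CPM in CD11b+ AMs and at 22.9 to 63.3 CPM in CRE- KCs (AM effect 2.22 ± 0.27, adjusted p = 5.93e-08; KC effect 0.09 ± 0.21, adjusted p = 0.84), and the divalent metal transporter Slc11a1 had an AM effect of 1.72 ± 0.19, adjusted p = 1.23e-08, and a KC effect of 0.12 ± 0.15, adjusted p = 0.682.

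**Figure D4:**
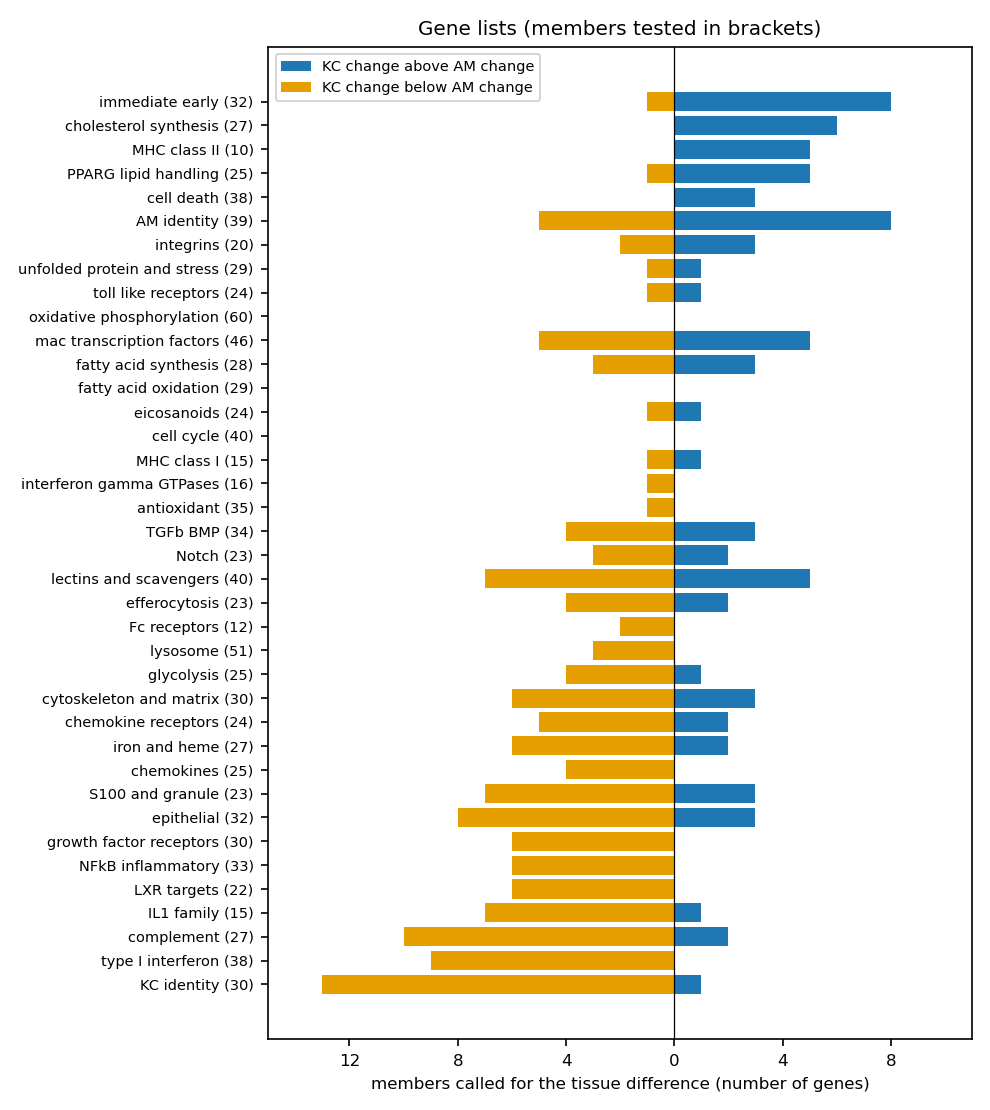
Number of members called for the tissue difference in each of the 38 gene lists (bars to the right, KC change above AM change; bars to the left, KC change below AM change; members tested in brackets). KC identity, complement and type I interferon genes lead the left side, with 13, 10 and 9 members, and immediate-early and AM identity genes the right side, with 8 members each.

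The epithelial list was the clearest case of genes that moved in both tissues by unequal amounts. Of 32 members tested, 18 rose and 1 fell in AMs, 10 rose and none fell in KCs, and 11 were called for the difference, 8 with the larger rise in AMs and 3 with the larger rise in KCs. Of those that rose, 17 of 18 in AMs and 8 of 10 in KCs reached a mean of 1 CPM in some group of that tissue. Members differed in the tissue that answered. The keratins Krt8 and Krt18, whose E-box promoters are shown above, rose in AMs alone. Krt18 was at 1.16, 0.487, 0, 0.285 and 0 CPM in CRE- AMs, 3.55, 2.33, 3.54, 6.18 and 7.44 CPM in CD11b- AMs and 65.7, 52.3, 34.8, 33.8 and 74.8 CPM in CD11b+ AMs, with a KC effect of 0.11 ± 0.42, adjusted p = 0.915. Cldn1, a tight junction claudin, was at 25.4, 14.9, 20.9, 28.3 and 31.3 CPM, 89.9, 114, 219, 196 and 143 CPM and 357, 347, 507, 428 and 445 CPM in the same groups and was below 3 CPM in every KC library. Crb3, a polarity gene, rose more in AMs (8.81 ± 0.81, adjusted p = 2.15e-10) than in KCs (2.04 ± 0.50, adjusted p = 0.00361), as did the protease St14, the junction gene Tjp3 and the protease inhibitor Spint2. Means of Crb3 were 0.00915, 4.99 and 9.77 CPM in CRE-, CD11b- and CD11b+ AMs. They were 0.179, 0.592 and 0.920 CPM in CRE-, Tim4+ and Tim4- KCs. Its fitted values rest on few reads in CRE- AMs and in KCs and give no bound on the fold.

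Spint1, an inhibitor of cell-surface serine proteases, was the main member with the larger rise in KCs, at 0, 0.230 and 0.610 CPM in CRE- KCs, 8.14, 19.8 and 29.6 CPM in Tim4+ KCs and 8.58, 45.3 and 62.5 CPM in Tim4- KCs beside 105, 91.8, 105, 104 and 109.6 CPM in CRE- AMs and 330.1, 352, 342, 351 and 352 CPM in CD11b+ AMs (tissue difference 5.69 ± 0.53, adjusted p = 6.80e-10). Lsr and F11r, both of cell junctions, rose in KCs alone, by 2.53 and 1.56. E-cadherin (Cdh1) and Cldn7 rose in both tissues with no call for the difference. KC means of Cldn7 were 0, 0.116 and 0.0461 CPM in CRE-, Tim4+ and Tim4- KCs, so that its rise there rests on very few reads. Epcam rose in AMs, from 14.8, 21.01, 12.5, 11.3 and 19.3 CPM in CRE- to 499, 543, 506, 477 and 525 CPM in CD11b+ libraries (4.26 ± 0.27, adjusted p = 2.71e-14), and in KCs no library passed 0.867 CPM, so that its tissue difference could not be estimated at this depth (-1.10 ± 9.04, adjusted p = 0.999). Markers of lung epithelial cells (12 genes) took 101 to 119 CPM in CRE- AMs, 70.7 to 98.03 CPM in CD11b- AMs and 119 to 154 CPM in CD11b+ AMs. Most of this was Napsa, and the 11 other genes took 29.3 to 37.5 CPM, 45.3 to 59.8 CPM and 54.8 to 71.7 CPM. Of these, Hopx (AM effect 1.58, adjusted p = 6.99e-06) and Sftpa1 (1.29, adjusted p = 6.00e-04) rose, and Sftpc had means of 13.5, 18.9 and 23.5 CPM. Their part in the rise of keratin and junction genes was not tested.

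**Figure D5:**
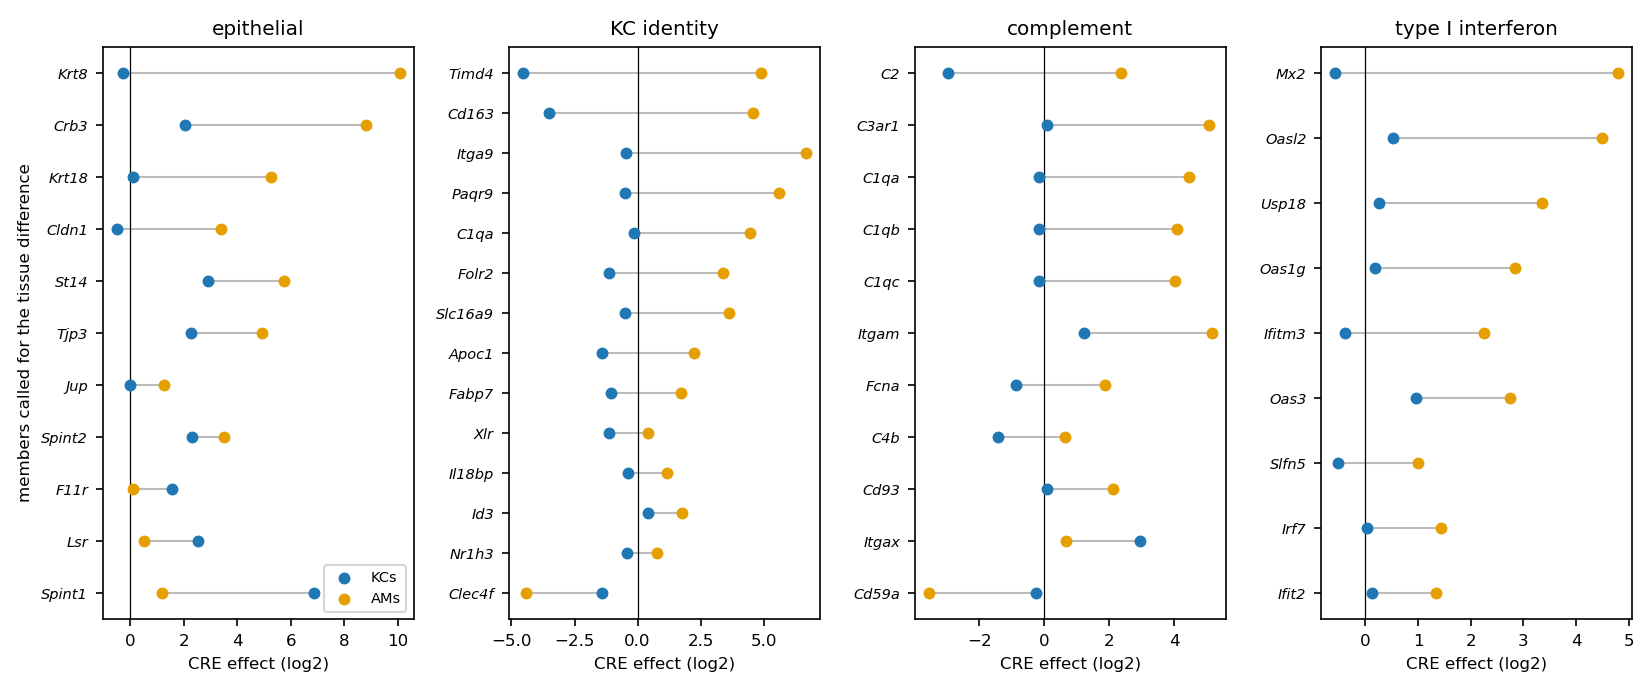
CRE effect (log2) in KCs (blue) and in AMs (orange) of members called for the tissue difference in the epithelial, KC identity, complement (all but 1) and type I interferon lists, with a line joining the 2 values of a gene. In the epithelial panel most points of both colours lie above 0, in the KC identity and complement panels most blue points lie below 0 and most orange points above it, and in the interferon panel the blue points stay within 1 of 0.

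Interferon-induced, interleukin-1 and chemokine genes rose for more members in AMs than in KCs. Over all genes tested more also rose in AMs, 6.3%, than in KCs, 2.94%, which bears on the rise counts of every list. The share called for the difference was 23.7% of type I interferon-induced, 53.3% of interleukin-1 family and 16% of chemokine genes, beside 8.15% of all genes tested. Of 38 type I interferon-induced genes tested, 12 rose in AMs and 2 in KCs, none fell, and 9 were called for the difference, all below. Oasl2, of the 2-5A synthetase family, was at 0.178, 0.682, 1.33, 1.28 and 2.83 CPM in CRE- AMs, 8.11, 7.11, 10.2, 16.05 and 9.32 CPM in CD11b- AMs and 96.5, 50.7, 74.6, 93.6 and 74.3 CPM in CD11b+ AMs, while CRE- KCs held 143 to 240.5 CPM and Tim4- KCs 132 to 405 CPM (KC effect 0.53 ± 0.22, adjusted p = 0.0881). The deubiquitinase Usp18, a brake on the interferon receptor, had an AM effect of 3.36 ± 0.40, adjusted p = 3.56e-08, and a KC effect of 0.25 ± 0.21, adjusted p = 0.46. Oasl2 stayed lower in every CD11b+ AM library than in any CRE- KC library. Of the interferon gamma-induced GTPases (16 tested), 3 rose in AMs and 1 in KCs, and none of the 3 reached a mean of 1 CPM in any AM group. Iigp1 was called for the difference, a call that limma-voom did not make and that was lost without replicate 1, 3 or 5 of the CRE- AMs (adjusted p = 0.0506 to 0.0560).

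The interleukin-1 family (15 genes tested) rose in AMs for 11 members and in KCs for 2, with 7 called below and 1 above. Il1a was at 155, 147, 133, 174 and 131 CPM in CRE- AMs, 281, 353, 413, 342 and 321 CPM in CD11b- AMs and 504, 558, 531, 502 and 491 CPM in CD11b+ AMs, and at 74.7, 90.7 and 98.01 CPM in CRE- and 58.98, 84.2 and 97.6 CPM in Tim4- KCs. AM groups were separate and KC groups overlapped (AM effect 1.51 ± 0.11, adjusted p = 8.49e-13; KC effect 0.04 ± 0.09, adjusted p = 0.828, with a 95% interval of -0.15 to 0.23). Il1b behaved alike, with an AM effect of 1.24 ± 0.19, adjusted p = 3.66e-06, and a KC effect of -0.14 ± 0.16, adjusted p = 0.646. The decoy receptor Il1r2 was the exception, at 0, 0 and 0.527 CPM in CRE- KCs, 11.3, 14.4 and 27.4 CPM in Tim4+ KCs and 22.2, 35.7 and 77.9 CPM in Tim4- KCs, against 7.74, 4.52, 4.53, 9.96 and 6.09 CPM in CD11b+ AMs. It rose more in KCs than in AMs (tissue difference 4.61 ± 1.41, adjusted p = 0.0173), a call lost without replicate 2 or replicate 3 of the CRE- AMs (adjusted p = 0.25 and 0.0744). Il1f9 rose in both, by 4.14 in KCs and 3.99 in AMs.

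Chemokines (25 tested) rose for 10 members in AMs and 3 in KCs, with 4 called below: Cxcl16, Ccl9, Ccl6 and Cxcl1. Cxcl16, a scavenger receptor and ligand of CXCR6, was at 3.17, 3.36, 3.20, 3.09 and 6.02 CPM in CRE- AMs, 18.6, 18.4, 35.8, 35.96 and 29.7 CPM in CD11b- AMs and 203, 166, 219, 225 and 233 CPM in CD11b+ AMs, and its CRE- KC level was 311 to 466 CPM (tissue difference -4.58 ± 0.24, adjusted p = 5.92e-16). Receptors (24 tested) rose for 6 members in each tissue, with 5 called below and 2 above. Cxcr2, the receptor of neutrophil-attracting chemokines, was called in AMs alone, from 4.90, 2.05, 3.20, 2.33 and 3.74 CPM in CRE- to 579, 552, 499, 641 and 596 CPM in CD11b+ libraries. Its KC effect of 0.997 (adjusted p = 0.0132) passed the p threshold and just missed the fold threshold. KC means of Cxcr2 were 0.613, 1.04 and 1.41 CPM in CRE-, Tim4+ and Tim4- cells. Ccr1 rose in KCs alone by the thresholds used, at 0.276, 0.535 and 4.81 CPM in CRE- KCs and 7.86, 27.4 and 114 CPM in Tim4- KCs (KC effect 3.85 ± 0.57, adjusted p = 5.67e-06; AM effect 1.03 ± 0.46, adjusted p = 0.0947). Among NF-κB and inflammatory genes (33 tested), 6 were below and none above, a share of 18.2%.

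S100 and secreted antimicrobial genes (23 tested) held 12 members that rose in AMs and 4 that rose in KCs, with 7 called below and 3 above. S100a8 was at 4.46, 4.63, 6.04, 4.47 and 2.78 CPM in CRE- AMs, 365, 466, 905, 1241 and 606 CPM in CD11b- AMs and 5236, 4351, 4067, 4186 and 4356 CPM in CD11b+ AMs, and Cd177, a surface antigen of neutrophils, at 113, 131, 214, 217 and 245 CPM and 2462, 2128, 2024, 2213 and 2520.2 CPM in the CD11b- and CD11b+ AMs beside at most 0.143 CPM in CRE- AMs. The siderophore-binding Lcn2 had an AM effect of 8.78 ± 0.62, adjusted p = 4.84e-13, and a KC effect of 1.49 ± 0.87, adjusted p = 0.264. Both are nearly silent in KCs, and their calls for the difference were lost without replicate 4 of the CRE- KCs (adjusted p = 1 and 0.229). In KCs other members answered: S100a11 rose in KCs alone (3.25), and Pglyrp1 rose more in KCs (6.95) than in AMs (3.20). Neutrophils express several of these genes. Of 9 neutrophil markers tested, 7 rose in AMs, namely S100a8, S100a9, Cxcr2, Csf3r, Mmp8 (means of 56.6, 193 and 227 CPM in CRE-, CD11b- and CD11b+ AMs), Ltf (0.172, 1.66 and 16.8 CPM) and Stfa2l1 (0, 0.0742 and 0.951 CPM). Mmp9 and Retnlg reached means of 14.7 and 2.83 CPM in CD11b+ AMs and were not called. Camp and Ngp, which were not tested, reached 0.777 and 3.32 CPM there, and Mpo and Elane had no count in any AM library. The part of neutrophil RNA in the rise was not tested.

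Genes of cholesterol and fatty acid synthesis were called in AMs and not in KCs. Of 27 genes of cholesterol synthesis, 6 fell in AMs, none was called in KCs in either direction, and 6 were called for the difference, all with the KC change above. The median effect was -0.47 in AMs and 0.10 in KCs. Dhcr7, which makes the last step to cholesterol, was at 99.96, 85.95, 95.4, 87.2 and 91.97 CPM in CRE- AMs, 65.7, 73.5, 68.4, 56.2 and 53.7 CPM in CD11b- AMs and 19.9, 24.2, 29.7, 29.2 and 19.3 CPM in CD11b+ AMs, and at 14.5 to 28.9 CPM in CRE- and 18.9 to 30.7 CPM in Tim4- KCs (AM effect -1.22 ± 0.12, adjusted p = 1.46e-09; KC effect 0.08 ± 0.12, adjusted p = 0.705). Mvd, of the mevalonate pathway, fell likewise from 93.5, 112, 97.6, 105 and 102 CPM in CRE- AMs to 35.6, 28.8, 37.4, 36.2 and 43.004 CPM in CD11b+ AMs. Sqle and Cyp51, of the later steps, had AM effects of -1.33 ± 0.22, adjusted p = 1.18e-05, and -1.02 ± 0.16, adjusted p = 4.31e-06, with their lowest means in CD11b- AMs rather than in CD11b+ AMs.

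The LXR receptors and their targets (22 tested) went the other way, with 5 that rose in AMs, 1 that fell in KCs and 6 called below, the receptor gene Nr1h3 among them. The share called for the difference was 27.3%. Apoe was at 53.3, 36.8, 34.7, 60.2 and 24.5 CPM in CRE- AMs, 275, 293, 317, 395 and 399.7 CPM in CD11b- AMs and 1926, 1673, 1155, 1824 and 2059 CPM in CD11b+ AMs, and at 6761 to 14032 CPM in CRE- and 6742 to 14905 CPM in Tim4- KCs (AM effect 4.18 ± 0.26, adjusted p = 2.06e-14; KC effect -0.02 ± 0.19, adjusted p = 0.978). The desaturase Scd1 was at 4.19, 5.85, 2.70, 3.90 and 5.21 CPM, 132, 87.2, 139.7, 177 and 129 CPM and 445, 276, 243, 274 and 287 CPM in the same AM groups and at 102 to 172 CPM in CRE- KCs (tissue difference -5.71 ± 0.28, adjusted p = 2.66e-16). The GTPase Arl4c had an AM effect of 3.37 ± 0.19, adjusted p = 3.36e-15, and a KC effect of 0.12 ± 0.14, adjusted p = 0.621. Within fatty acid and triglyceride synthesis (28 tested), 4 members rose and 4 fell in AMs, with 3 called above and 3 below for the difference. Among genes of PPARγ and lipid handling (25 tested), 5 were above and 1 below: the lipid chaperone Fabp4 fell in AMs (-1.80 ± 0.19, adjusted p = 2.84e-09; KC effect 0.34 ± 0.18, adjusted p = 0.22), and the tetraspanin Cd9 rose in KCs (2.12 ± 0.15, adjusted p = 1.32e-12; AM effect 0.05 ± 0.14, adjusted p = 0.877), from 18.5 to 28.2 CPM in CRE- to 56.8 to 158 CPM in Tim4- KCs, beside 5962 to 6928 CPM in CRE- AMs. The KC effect of Fabp4 averages groups that moved apart, with means of 17.2, 36.6 and 13.3 CPM in CRE-, Tim4+ and Tim4- KCs.

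Glucose uptake and glycolysis genes (25 tested) included 5 that rose in AMs and 1 that rose in KCs. For the difference 4 were called below and 1 above, a share of 20%. Fatty acid oxidation (29 tested), oxidative phosphorylation (60) and cell cycle genes (40) had no member called for the difference by edgeR or DESeq2. At an unadjusted p under 0.05 there were 13, 23 and 3 members, and limma-voom called 0, 0 and 2.

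Class II antigen presentation (10 genes tested) had 5 members with the KC change above and none below. That is 50% of the list, beside 8.15% of all genes tested. The 5 were H2-DMa, H2-DMb1, H2-DMb2, H2-Oa and Ciita, and H2-Aa, H2-Ab1, H2-Eb1 and Cd74 were not called for the difference. The median effect was 0.74 in KCs and 0.42 in AMs. The call of Ciita was not made by limma-voom (adjusted p = 0.0958). That of H2-DMb1 missed the fold threshold when any of 3 single libraries was left out. H2-DMa, which loads peptide onto class II molecules, was at 477, 455, 446, 499 and 532 CPM in CRE- AMs, 231, 266, 245, 224 and 258 CPM in CD11b- AMs and 66.2, 74.1, 66.96, 66.4 and 68.7 CPM in CD11b+ AMs. KCs held 358, 427 and 521 CPM in CRE- and 486, 577 and 709 CPM in Tim4- cells (AM effect -1.90 ± 0.09, adjusted p = 5.88e-17; KC effect 0.22 ± 0.09, adjusted p = 0.0896). H2-Oa, which hinders that loading, rose in both tissues and more in KCs (4.54 ± 0.24, adjusted p = 1.39e-15) than in AMs (2.07 ± 0.23, adjusted p = 8.26e-09). Class I genes (15 tested) had 1 member above and 1 below, a share of 13.3%.

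Immediate-early genes (32 tested) had 8 members above and 1 below. Egr1 was at 411, 598, 536, 459.9 and 429.7 CPM in CRE- AMs, 89.04, 219, 136, 155 and 167 CPM in CD11b- AMs and 129, 163, 114, 207 and 139 CPM in CD11b+ AMs, and Egr2, also a regulator of AMs, at 828, 911, 883, 1044 and 861 CPM, 395, 536, 359, 562 and 432 CPM and 169.9, 257, 237, 288 and 149 CPM. In KCs Egr1 was at 12.7, 18.6 and 27.3 CPM in CRE-, 16.8, 20.2 and 68.000 CPM in Tim4+ and 25.3, 34.7 and 94.9 CPM in Tim4- cells, with replicate 6 the highest by a wide margin in both CRE+ groups. AMs began far higher and fell, and the KC effect (0.83 ± 0.28, adjusted p = 0.0376) did not pass the fold threshold. The phosphatase Dusp5 rose in KCs alone, from 0.369 to 1.13 CPM in CRE- to 5.21 to 15.5 CPM in Tim4- KCs, beside 183 to 247 CPM in CRE- AMs (AM effect 0.05 ± 0.16, adjusted p = 0.884). Mac transcription factors (46 tested) had 5 members above and 5 below, a share of 21.7%. Id2, an inhibitor of E-box-binding helix-loop-helix factors, rose in both tissues and more in AMs, at 175 to 215 CPM in CRE- KCs, 385 to 559.8 CPM in Tim4- KCs, 69.6 to 109 CPM in CRE- AMs and 921 to 1209.9 CPM in CD11b+ AMs (tissue difference -1.79 ± 0.15, adjusted p = 2.94e-11).

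Signalling lists held both directions. Beside 8.15% of all genes tested, the share called was 20.6% for TGF-β and BMP, 21.7% for Notch and 20% for growth factor genes. Among TGF-β and BMP genes (34 tested), 3 were above and 4 below, with Bmpr1a opposite, Id2, Id3 and Smurf1 higher in AMs, Tgfb2 and Smad9 lower in AMs, and Gdf15 higher in KCs. Smad9 had 14 counts in CRE- AMs and 1 count in each CRE+ group, and limma-voom did not call its difference (adjusted p = 0.0638). The difference of Tgfb2 was lost without any of 19 single libraries (adjusted p = 0.0504 to 0.981). Notch genes (23 tested) were called in AMs alone, 3 higher and 3 lower, with none called in KCs. Notch1 was at 39.5, 38.95, 48.5, 42.2 and 45.4 CPM in CRE- AMs, 17.1, 20.6, 19.5, 18.9 and 23.95 CPM in CD11b- AMs and 5.0002, 5.28, 4.90, 6.48 and 4.23 CPM in CD11b+ AMs (AM effect -2.07 ± 0.13, adjusted p = 3.58e-14; KC effect -0.12 ± 0.12, adjusted p = 0.559), while the effector Hey1 rose in AMs (2.94 ± 0.26, adjusted p = 1.09e-10). Growth factors and their receptors (30 tested) had 6 members below and none above. Igf1 was at 16.2, 17.2, 19.03, 20.7 and 18.4 CPM in CRE- AMs, 68.3, 42.1, 47.1, 78.8 and 55.6 CPM in CD11b- AMs and 162, 86.2, 73.99, 147 and 132 CPM in CD11b+ AMs beside 406 to 598 CPM in CRE- KCs (tissue difference -2.21 ± 0.22, adjusted p = 1.51e-09), and the receptor of G-CSF, Csf3r, had an AM effect of 2.42 ± 0.15, adjusted p = 2.33e-14, and a KC effect of 0.53 ± 0.12, adjusted p = 0.00213.

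Genes of cell death (38 tested) had 3 members above, all called in KCs alone, and none below, a share of 7.89% that is near that of all genes tested. Bmf, a BH3-only protein that promotes apoptosis, was at 5.83, 8.06 and 8.70 CPM in CRE- KCs, 14.9, 21.03 and 23.7 CPM in Tim4+ KCs and 11.8, 31.2 and 53.7 CPM in Tim4- KCs, and its AM effect was 0.01 ± 0.18, adjusted p = 1.0 (95% interval -0.35 to 0.37). The cell cycle inhibitor Cdkn1a had a KC effect of 1.47 ± 0.15, adjusted p = 6.83e-09, and an AM effect of 0.16 ± 0.15, adjusted p = 0.493, and the survival gene Bcl2a1d one of 1.42 in KCs and 0.00 in AMs. Bcl2a1d is one of several near copies, and its count is uncertain. Of the 3, 2 are known to promote death or arrest and 1 survival.

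In the matrix and protease list (30 tested) 6 members were below and 3 above. The elastase Mmp12 rose in AMs alone, from 6.87 ± 1.82 CPM in CRE- (mean ± SD, n = 5) to 676 ± 228 CPM in CD11b+ AMs (KC effect 0.26 ± 0.30, adjusted p = 0.625). Lectins and scavenger receptors (40 tested) had 7 members below and 5 above, efferocytosis genes (23) 4 and 2, integrins (20) 2 and 3, and Fc receptors (12) 2 and 0. The share called was 30% for the matrix list and for lectins and scavenger receptors. For efferocytosis genes, integrins and Fc receptors it was 26.1%, 25% and 16.7%. Lysosomal genes (51 tested) had 3 members below and none above, unfolded protein and stress genes (29), Toll-like receptors (24) and eicosanoid genes (24) 1 each way, and antioxidant genes (35) 1 below. In the last 4 lists and among lysosomal and interferon gamma-induced GTPase genes the share called lay between 2.86% and 8.33%, near or below the 8.15% of all genes tested. Ms4a1, which encodes CD20, rose in both tissues with no call for the difference, from 1.18 to 9.65 CPM in CRE- to 106 to 181 CPM in Tim4- KCs and from 1.42 to 4.83 CPM in CRE- to 47.9 to 80.04 CPM in CD11b+ AMs (tissue difference 0.79 ± 0.40, adjusted p = 0.179), and the 8 other B cell markers together took 50.6 to 123 CPM in Tim4- KCs and 7.19 to 17.3 CPM in CD11b+ AMs.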

How the data were processed

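RNA was sequenced from sorted macs of 6 groups in 33 libraries. The authors deposited, per library, whole-number counts of reads per gene symbol, made with HTSeq-count according to the methods of the study. The submitters' processing notes name FastQC 0.11.4, Trimmomatic 0.35, TopHat2 2.1.0, SAMtools 0.1.18 and the mm10 build. The annotation, the strand setting and the handling of reads that map to several genes are not given in the sources used here, and antisense or overlapping genes and near copies cannot be told apart by these counts. The tally of reads outside genes, 4.52% to 8.90% of a library's counts, and of ambiguous reads, 1.19% to 1.39%, was left out of library sizes, as were the other tallies.

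Groups were taken from the sample labels. Genes with enough counts (filterByExpr by group) were tested in R 4.3.3 with the quasi-likelihood test of edgeR 4.0.16 (TMM factors, 1 fit over all 33 libraries, a mean per group, Benjamini-Hochberg adjustment over all genes tested). A gene was called at an adjusted p under 0.05 and an absolute log2 value above 1. The steps were tested on simulated data. CPM values used TMM-scaled library sizes, log2 CPM a prior count of 0.5, and intervals of 95% the standard error of the fit. Lower bounds set a group without counts to 3 counts over the group. Such bounds cover counting error only. At 9837240 to 24332306 counts per library, 1 count is worth at most about 0.1 CPM. No pair of libraries of a group differed by as little as sampling noise (chi-square per gene of at least 12.5), and all were kept as separate replicates.

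The genes and gene lists were chosen with earlier results of these data known. Genes named were the 8 largest differences of each opposite direction, the 4 largest of each direction called in a single tissue (detected at 1 CPM in the other and at 16 CPM in the responding tissue), genes the study sorted on or measured otherwise, and up to 5 called members of each list. Other genes named in the text were picked after their values were seen, to describe a group. In the complement list, 1 gene is counted and is not reported here. Promoters came from RefSeq (GRCm38.p6), matched by symbol. Alternatives were limma-voom (limma 3.58.1), DESeq2 1.42.0, RLE factors, other filters and thresholds, a replicate block, fits by tissue or by sorted group, and each library left out in turn.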

Additional observations from a re-analysis of the deposited data

Results flagged for a closer look

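Genes whose CRE effect differed between KCs and AMs by the test of the difference itself (edgeR's quasi-likelihood test, adjusted p under 0.05 and absolute log2 difference above 1) numbered 1083, of which 41 changed in opposite directions and 822 were called in a single tissue. These are the counts described above.

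For the 82 genes whose levels the text turns on, the highest and lowest library of each group was set against the others by Dixon's ratio. Of 487 gene and group values, 50 had a library apart from its group, and chance gives about 1 in 20. The libraries with most such values were replicate 4 of the CRE- KCs and replicate 4 of the Tim4+ KCs, with 7 each, and replicates 1 and 4 of the Tim4- KCs, with 5 each. Many values lay at or below 1 CPM, where a few reads decide the level.

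In CRE- KCs, replicate 1 was the lowest of its group for Siglecf at 1.62 CPM and Bmf at 5.83 CPM. Replicate 2 was the highest of its group for Apbb1 at 0.915 CPM. Replicate 3 was the lowest of its group for Cyp51 at 9.77 CPM and Slc11a1 at 1154 CPM. Replicate 4 was the highest of its group for Epcam at 0.0527 CPM, S100a9 at 0.738 CPM, Crb3 at 0.527 CPM, Il1r2 at 0.527 CPM, Egr2 at 7.96 CPM, Cd177 at 0.369 CPM and Lcn2 at 0.633 CPM. In Tim4+ KCs, replicate 2 was the highest of its group for Apbb1 at 0.101 CPM. Replicate 4 was the highest of its group for Krt18 at 4.06 CPM, Cldn1 at 2.71 CPM, Ccl9 at 41.5 CPM, Ccr1 at 40.7 CPM, Dhcr7 at 32.6 CPM and Mvd at 18.3 CPM and was the lowest of its group for Il1a at 70.9 CPM. Replicate 6 was the highest of its group for Egr1 at 68.0 CPM and Egr2 at 29.0 CPM. In Tim4- KCs, replicate 1 was the highest of its group for Tmem26 at 199 CPM, Abcb4 at 10.7 CPM, S100a9 at 5.10 CPM, Krt18 at 4.19 CPM and Fabp4 at 27.5 CPM. Replicate 2 was the highest of its group for Bmpr1a at 0.935 CPM. Replicate 4 was the highest of its group for Epcam at 0.867 CPM, Cldn1 at 0.867 CPM, Lcn2 at 1.08 CPM, Mmp12 at 32.3 CPM and Cdkn1a at 47.2 CPM. Replicate 5 was the highest of its group for Siglecf at 421 CPM. Replicate 6 was the highest of its group for Egr1 at 94.9 CPM, Egr2 at 36.7 CPM and Cd177 at 0.0460 CPM.

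In CRE- AMs, replicate 1 was the highest of its group for Igf2r at 0.0446 CPM. Replicate 3 was the highest of its group for Crb3 at 0.0457 CPM. Replicate 4 was the highest of its group for Timd4 at 0.0475 CPM and Cd177 at 0.143 CPM. Replicate 5 was the highest of its group for Cxcl16 at 6.02 CPM and was the lowest of its group for Tfrc at 1.47 CPM. In CD11b- AMs, replicate 1 was the highest of its group for Ccl9 at 377 CPM and was the lowest of its group for Csf3r at 89.8 CPM. Replicate 3 was the lowest of its group for Zeb2 at 84.7 CPM. Replicate 5 was the highest of its group for Il1r2 at 1.03 CPM. In CD11b+ AMs, replicate 1 was the highest of its group for Scd1 at 445 CPM and S100a8 at 5236 CPM. Replicate 2 was the highest of its group for Gpd1 at 0.304 CPM.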

How the results depend on the processing

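As reported, 1083 genes were called for the tissue difference, 610 in KCs, 1365 in AMs, 41 as opposite and 822 in a single tissue, and the numbers below keep this order. Counts stayed within 1.5-fold under limma-voom (1088, 749, 1275, 31 and 849), DESeq2 (1254, 643, 1432, 54 and 950), RLE factors, no filter, KC replicates 5 and 6 left out, and fits by tissue (519 in KCs, 1236 in AMs). Of the 41 opposite genes, limma-voom shared 21, DESeq2 40 and RLE factors 39. With at least 10 counts in every library (9214 genes tested, which drops genes silent in a group) they were 522, 185, 483, 10 and 353. Without the fold threshold they were 2597, 2377, 3828, 283 and 1966, and above a log2 value of 2 they were 595, 305, 734, 14 and 465. With Tim4- KCs and CD11b+ AMs alone they were 1952, 1149, 1930, 143 and 1325, and with Tim4+ KCs and CD11b- AMs alone 610, 330, 778, 16 and 470. Leaving out 1 library gave 1038 to 1139, 537 to 629, 1267 to 1390, 34 to 49, and 776 to 844 genes. Correlations of same-numbered libraries' deviations ran from -0.055 to 0.203 and passed 0.1 for all pairs of no 2 groups, so that the fit has no block. Between Tim4+ and Tim4- KCs they passed it for 5 of 6 pairs (median 0.162), and 6 of 6 matched best with their own number, a hint from the data, not the design, that the numbers pair these 2 groups. With the replicate block the counts were 1117, 611, 1355, 44 and 833, with 36 of the 41 opposite genes shared.

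Of 189 genes picked by the rule for named genes or to describe a group, 96 lost their call under at least 1 alternative, 5 gained one and 8 changed sign. limma-voom lost 26, DESeq2 1, Tim4+ KCs and CD11b- AMs alone 58, and Tim4- KCs and CD11b+ AMs alone 6. The tissue difference of Cd101 turned to 0.41 without KC replicates 5 and 6, 0.16 with Tim4+ KCs and CD11b- AMs alone, and 0.30 and 0.33 without replicate 2 or 5 of the CRE- KCs (range with 1 library left out -0.67 to 0.33). That of Cd55 was -2.31 with Tim4- KCs and CD11b+ AMs alone. With Tim4+ KCs and CD11b- AMs alone, Csf1 turned to 0.95, Fcgr2b to 0.17, Ripk3 to 0.36, S1pr1 to 0.11 and Zeb1 to 0.51, and Epcam turned to 0.10 without replicate 4 of the CRE- KCs (range -1.95 to 0.10). The cause of these changes was not tested. For genes silent in a group, the depth limits the fold to a bound.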

Other observations

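Of 11 markers of T and NK cells, 4 rose in KCs, none was called in AMs, and none was called for the tissue difference. Cd8a (KC effect 2.29, adjusted p = 0.0349), Cd3g (2.13, adjusted p = 0.00760), the granule gene Nkg7 (1.77, adjusted p = 0.0356) and the granzyme Gzma (1.97, adjusted p = 0.0480) were the ones that rose (edgeR). All had means below 10 CPM in every KC group. The summed list took 7.26 to 12.8 CPM in CRE- KCs, 11.1 to 52.6 CPM in Tim4+ KCs and 3.97 to 99.2 CPM in Tim4- KCs, so that Tim4- KCs spanned the range of their controls. In AMs the sum of 290 to 443 CPM was nearly all Cd2, with means of 304, 385 and 411 CPM in CRE-, CD11b- and CD11b+ AMs. Genes common to macs (8 genes) took 15531 to 24134 CPM in KCs and 29737 to 40024 CPM in AMs.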
